A study of Mus musculus with 2 samples.

Results

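Chromatin accessibility was examined around 6 microRNA genes with known roles in blood cells, Mir142, Mir150, Mir155, Mir146, Mir223 and Mir17, in the mouse spleen. They were taken by name from the 2202 microRNA genes of the GENCODE M21 annotation on chromosomes 1 to 19, X and Y, and every DNase peak with a base within 50 kb of a hairpin was collected, with the footprints whose midpoint lay in such a peak. A host is an annotated transcript on the same strand that spans the hairpin, and its promoter is the 1 kb on each side of an annotated transcription start site (TSS). DNase-seq, which maps where the enzyme DNase I cuts open chromatin, was run on spleen tissue of 2 male mice of the strain B6CASTF1/J, an F1 hybrid of C57BL/6J and CAST/EiJ, aged 2 months. Both mice belong to 1 untreated group with no second condition, so values are given for animal 1 and animal 2 side by side, a mean ± SD (n = 2) describes these animals alone, and no test was made. Whole tissue was used, so more cells of an open type and more accessibility per cell cannot be told apart, and the deposited values do not separate the parental alleles of the hybrid.

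MicroRNAs are short RNAs that pair with messenger RNAs and lower their translation and stability. Each is cut from a hairpin in a longer primary transcript, first by Drosha with Dgcr8 in the nucleus and then by Dicer1 in the cytoplasm, and is loaded onto an Argonaute protein. Bases 2 to 8 of the mature strand, the seed, do most of the target recognition. The promoter of the primary transcript, where many transcription factors bind, can lie far upstream of the hairpin. In blood cells, miR-142 is made in nearly all lineages, miR-150 in mature lymphocytes, miR-155 in activated lymphocytes and macrophages, miR-146a after signalling through NF-kB, miR-223 in granulocytes and monocytes, and the cluster of miR-17 in dividing progenitors.

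In the longer of the lists that the authors deposited per library there were 79246 peaks (animal 1) and 77231 peaks (animal 2), and the authors' peak height, a cut density whose unit is not given in words, had a median of 0.888 and 1.05. Its 90th percentile was 5.35 in animal 1 and 6.63 in animal 2. Promoters of all 6 B cell marker genes were open in both animals, as were those of 4 of 5 T cell and 3 of 5 macrophage markers. The medians of their mean heights differed, at 7.16 for B cell, 0.884 for T cell and 0.487 for macrophage markers. Cd4 and Adgre1 were closed in both animals, and Csf1r was open in animal 1 only. None of 4 neutrophil markers (S100a8, S100a9, Elane, Mpo) and none of 3 erythroid markers were open at the promoter in both animals, and Klf1 alone of the erythroid ones was open in animal 2. Of the endothelial markers 2 of 3 and of the neuronal ones 1 of 2 were open (Snap25, at 0.337 in animal 1 and 0.333 in animal 2), and hepatocyte and pancreatic acinar markers were closed. Across the annotation, the promoters of 59.8% of the protein-coding genes were open in both animals.

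Mature strands of the 6 loci and of Mir146b are shown with the seed in capitals, since the seed decides which strands share targets. They are from RefSeq for GRCm38.p6. Not every strand is printed, and miR-150-5p had no entry in the source used, so the miR-150-3p seed does not stand for it.
miR-142a-5p: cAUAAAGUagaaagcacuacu
miR-142a-3p: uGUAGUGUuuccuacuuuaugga
miR-150-3p: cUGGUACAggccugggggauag
miR-155-5p: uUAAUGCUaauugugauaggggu
miR-146a-5p: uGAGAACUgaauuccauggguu
miR-223-3p: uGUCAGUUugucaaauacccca
miR-17-5p: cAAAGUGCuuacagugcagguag
miR-18a-5p: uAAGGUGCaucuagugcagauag
miR-19a-3p: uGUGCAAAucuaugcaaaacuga
miR-20a-5p: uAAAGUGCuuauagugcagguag
miR-19b-3p: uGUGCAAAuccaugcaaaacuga
miR-92a-3p: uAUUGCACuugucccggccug
miR-146b-5p: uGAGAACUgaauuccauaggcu
Within the cluster of Mir17, miR-17-5p and miR-20a-5p share the seed AAAGUGC and miR-19a-3p and miR-19b-3p share GUGCAAA, while miR-18a-5p and miR-92a-3p each have their own. The seed of miR-146a-5p, GAGAACU, is shared by miR-146b-5p, whose gene lies on chromosome 19. No seed is shared between the strands printed from different ones of the 6 loci.

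The accessible DNA at 5 of the 6 loci is shown on the strand of the microRNA, with bases that lay in a footprint of both animals in capitals. A footprint is a short stretch protected from the enzyme inside an open site. For the 4 hosted microRNAs the stretch is from the strongest promoter peak of the host and for Mir146 from the strongest of its nearest upstream peaks. It covers the bases shared by the peaks of the animals, or the central 300 of them. The sequence is that of the reference strain C57BL/6J in GRCm38.p6.
Mir142, chr11:87755421-87755540, plus strand: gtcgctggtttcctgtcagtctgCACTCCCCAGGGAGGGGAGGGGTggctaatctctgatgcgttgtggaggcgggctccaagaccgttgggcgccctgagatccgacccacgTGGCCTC
Mir155, chr16:84703211-84703510, plus strand: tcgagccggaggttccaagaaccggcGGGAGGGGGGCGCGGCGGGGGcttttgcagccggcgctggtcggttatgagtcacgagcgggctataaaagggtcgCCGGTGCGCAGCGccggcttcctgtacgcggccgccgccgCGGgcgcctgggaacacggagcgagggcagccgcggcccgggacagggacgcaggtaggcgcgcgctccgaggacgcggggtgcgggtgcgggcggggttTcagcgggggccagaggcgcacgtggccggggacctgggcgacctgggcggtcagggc
Mir146, chr11:43385441-43385620, minus strand: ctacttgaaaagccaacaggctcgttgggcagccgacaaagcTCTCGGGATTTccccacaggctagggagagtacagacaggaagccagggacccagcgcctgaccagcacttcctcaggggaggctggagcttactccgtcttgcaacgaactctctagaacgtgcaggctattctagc
Mir223, chrX:96239661-96239960, plus strand: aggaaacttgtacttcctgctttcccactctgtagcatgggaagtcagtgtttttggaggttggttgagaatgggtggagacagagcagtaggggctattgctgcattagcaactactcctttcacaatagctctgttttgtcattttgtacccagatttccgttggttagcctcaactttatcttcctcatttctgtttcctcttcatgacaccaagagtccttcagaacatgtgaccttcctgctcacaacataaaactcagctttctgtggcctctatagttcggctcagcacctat
Mir17, chr14:115042141-115042360, plus strand: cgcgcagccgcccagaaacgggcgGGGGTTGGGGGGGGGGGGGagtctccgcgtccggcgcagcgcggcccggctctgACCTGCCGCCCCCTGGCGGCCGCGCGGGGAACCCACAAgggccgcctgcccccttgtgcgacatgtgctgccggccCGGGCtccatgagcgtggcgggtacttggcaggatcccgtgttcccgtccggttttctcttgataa
The stretches differed in base composition. G and C made up 76% of the Mir155hg stretch, with 45 CG pairs in 300 bases, and 73.6% of the Mir17hg stretch, with 26 CG pairs in 220 bases. The stretch of the Mir223 host had 44.7% G and C and 2 CG pairs in 300 bases. Those of Mir142 and Mir146 lay between, at 65% and 57.2%. Of the Mir17hg stretch, 62 bases were in footprints of both animals, against 38 at Mir155hg, 30 at Mir142hg, 11 at Mir146 and 0 at the Mir223 host, where 36 bases were footprinted in animal 1 and 27 other bases in animal 2.

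Known binding consensus letters were searched in these stretches on both strands, and positions are counted from 1 at the 5′ end of the printed stretch. The Mir146 stretch held GGGATTTCC, a match to the shorter NF-kB consensus GGGNNTTCC, at position 47, and a footprint of each animal touched it. Windows of the same length, 180 bp, around the midpoints of all peaks held that consensus in 4.44% of peaks in animal 1 and 4.42% in animal 2. The same stretch held the PU.1 letters GAGGAAGT, read on the other strand, at position 110, touched by a footprint in animal 2 alone. Those letters were in 5.35% and 4.40% of such windows. The Mir17hg stretch held a match to the CTCF core at position 86, touched by a footprint in each animal and found in 4.09% and 4.41% of windows of 220 bp. The Mir142hg stretch held the E-box CACGTG at position 110, found in 3.61% and 3.91% of windows of 120 bp. A footprint of each animal touched only its last bases, TG. In the Mir155hg stretch lay an AP-1 match, TGAGTCA, at position 74, an E-box at position 262 and a STAT match, TTCCAAGAA, at position 13, none of them touched by a footprint. In windows of 300 bp, AP-1 was in 8.29% of peaks in animal 1 and 7.58% in animal 2. The E-box was in 6.95% and 7.15% of them, and STAT in 8.13% and 7.42%. In the stretch of the Mir223 host lay an IRF match at position 192, the GATA letters AGATAA on the other strand at position 180 and a MYB match at position 161. The GATA and MYB matches were touched by a footprint in animal 1 and not in animal 2. In windows of 300 bp, IRF was in 4.32% of peaks in animal 1 and 3.69% in animal 2. GATA letters were in 10.0% and 8.97%, and MYB in 36.2% and 35.9%. A match describes letters and is not a bound site, and a stretch without a match says only that these letters are not in it.

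Mir142 had the densest accessible surroundings of the 6. Its hairpin lies on the plus strand of chromosome 11 from 87756864 to 87756927 (mm10), in an intron of the lincRNA Mir142hg. Peaks within 50 kb numbered 28 in animal 1 and 27 in animal 2, and 13 and 11 of them lay within 5 kb. The highest was at the Mir142hg start, 1264 bp upstream of the hairpin, with heights of 16.6 in animal 1 and 17.2 in animal 2 (16.9 ± 0.407, SD, n = 2). Those values stood at the 99.2 and 98.8 percentile of their libraries. Their log2 ratio of 0.05 (animal 2 over animal 1) lay within 1 SD (0.41) of the median of 0.23 over all matched peaks. That SD pools peaks of every height. Upstream of this highest peak came a second one in reach of the Mir142hg promoter, 2004 bp from the hairpin, at 9.56 in animal 1 and 9.61 in animal 2. Another, 84 bp upstream of the hairpin, had heights of 5.62 and 5.81.

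**Figure D1:**
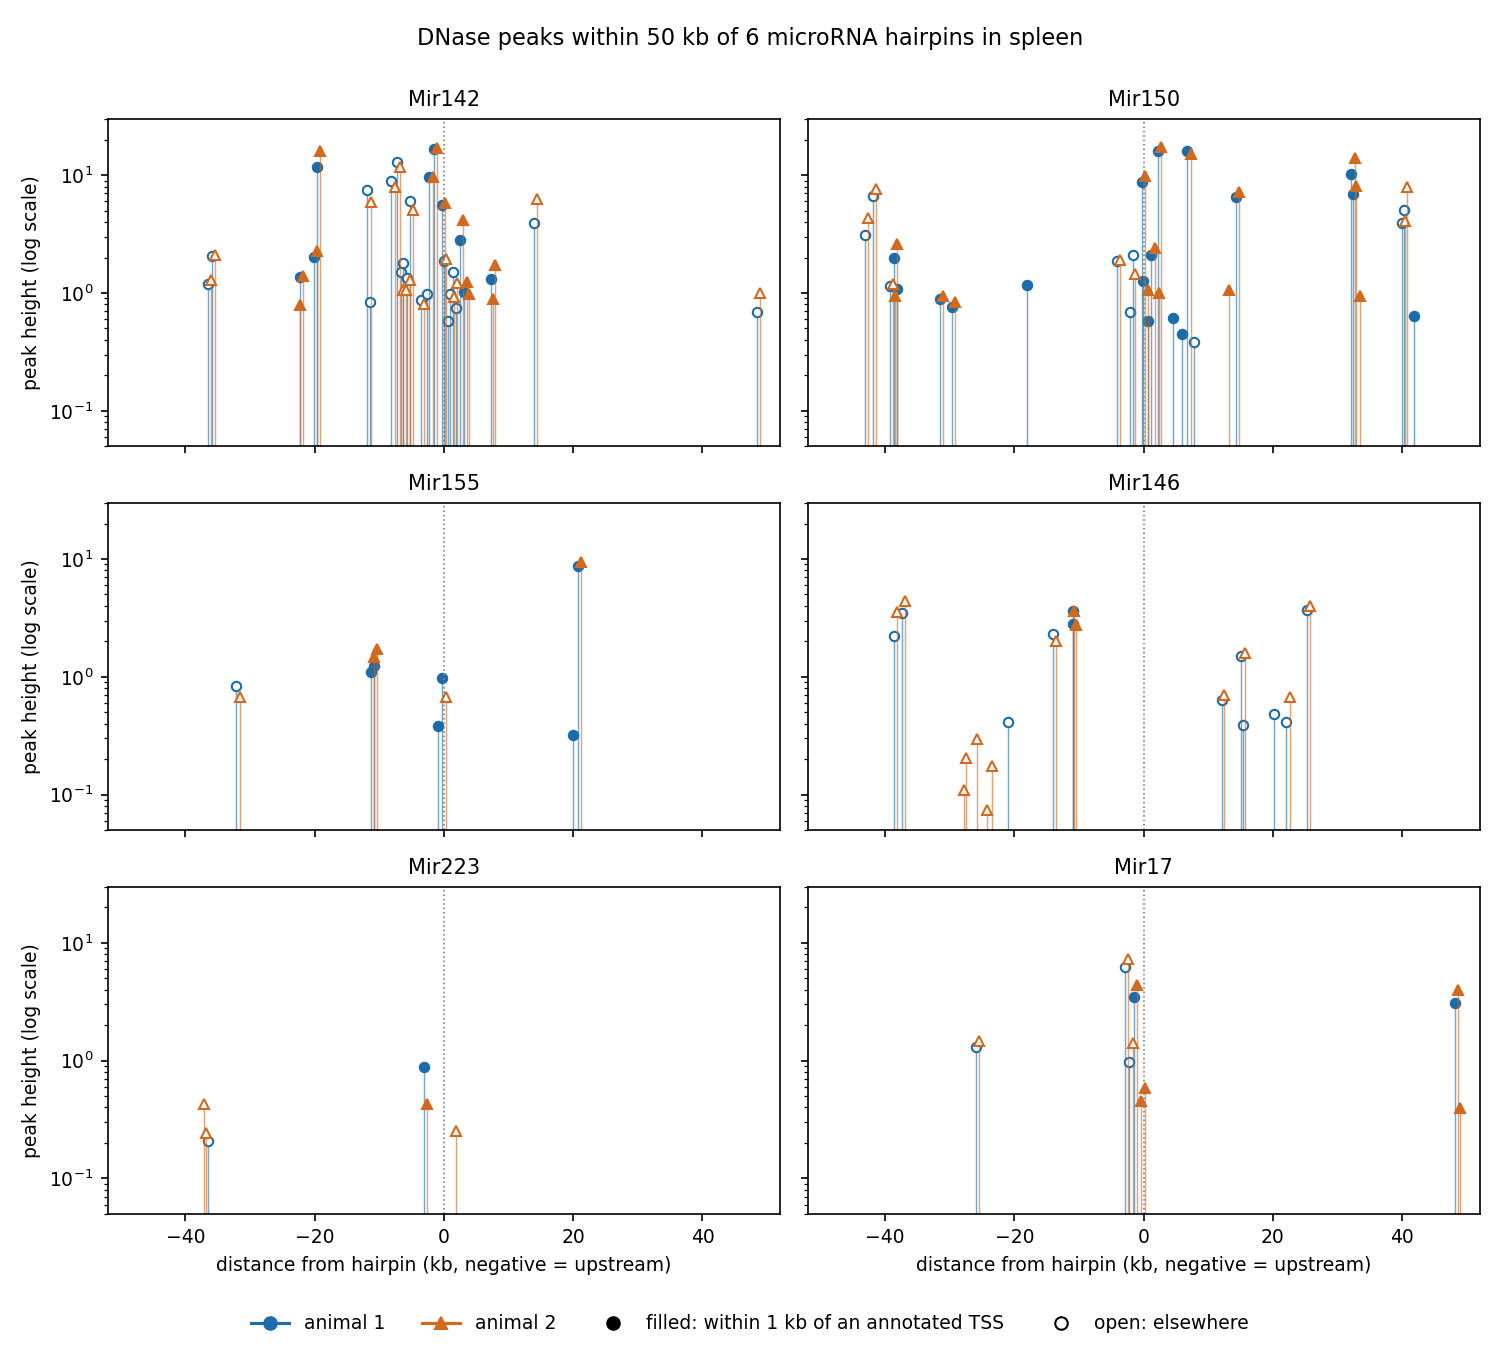
Height of every DNase peak (log axis) against its distance from the hairpin in kb on the strand of the microRNA, for the 6 loci, with animal 1 as circles and animal 2 as triangles drawn side by side. Filled symbols lie within 1 kb of an annotated TSS; Mir142 and Mir150 have 22 to 28 peaks per animal and Mir223 has 2 and 4.

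Further upstream of Mir142, a run of intergenic sites stood between its host and Supt4a, which encodes a transcription elongation factor. The highest, 7064 bp upstream of the hairpin, had heights of 13.0 in animal 1 and 11.7 in animal 2. Neighbours at 7864 bp and 11604 bp reached 8.93 and 7.48 in animal 1, and 7.88 and 5.93 in animal 2. All 8 upstream intergenic sites found in both animals were higher in animal 1, by log2 ratios (animal 2 over animal 1) of -0.76 to -0.05. All 13 sites of the locus in promoters, exons and introns were higher in animal 2, and the Supt4a promoter itself had heights of 11.7 in animal 1 and 16.0 in animal 2. Over the whole locus, 10 of 11 intergenic sites were higher in animal 1. This split was chosen for mention after its values were seen, and its cause was not tested. The median ratio over all matched peaks was 0.23, and 18 of the 24 sites of the locus found in both animals lay below it. The 13 sites higher in animal 2 had a median ratio of 0.12, so the split is not clean when set against the median of all peaks. Downstream, the promoters of Tspoap1, which encodes a RIM-binding protein, carried peaks at 3.48 ± 0.958 and lower (SD, n = 2). The outermost downstream site lay 2464 bp from the TSS of Mpo, a neutrophil marker, and had heights of 0.695 in animal 1 and 1.00 in animal 2.

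Mir150 also sat among many high peaks, most of them at promoters of neighbouring genes. Its hairpin lies on the plus strand of chromosome 7 from 45121757 to 45121821, and no transcript on its strand spans it. Peaks within 50 kb numbered 26 in animal 1 and 22 in animal 2. The peak next to the hairpin, ending 37 bp upstream of it in animal 1 and 57 bp upstream in animal 2, had heights of 8.68 and 9.88 (9.28 ± 0.847, SD, n = 2). In it lay 9 footprints in animal 1 and 5 in animal 2. It lies within 1 kb of the start of Gm45552, a transcript annotated as antisense that begins 96 bp downstream of the hairpin. Among the neighbours, the promoter of Rpl13a, a ribosomal protein gene, had heights of 15.9 in animal 1 and 15.1 in animal 2, and the site shared by the starts of Aldh16a1 and Pih1d1 had 10.3 and 14.1. Heights at the promoters of neighbouring genes cannot be assigned to Mir150. A weaker site 1457 bp upstream was higher in animal 1, at 2.12 against 1.46 in animal 2.

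The locus of Mir17 was open upstream of the annotated start of its host. The hairpin lies on the plus strand of chromosome 14 from 115043671 to 115043754, in an exon of Mir17hg, with Mir18, Mir19a, Mir20a, Mir19b-1 and Mir92-1 following within 10 kb on the same strand. The highest site, 2671 bp upstream of the hairpin and 1879 bp from the TSS, had heights of 6.22 in animal 1 and 7.35 in animal 2. The strongest peak in the promoter, 519 bp from the TSS, had heights of 3.50 and 4.39 (3.94 ± 0.635, SD, n = 2). Both sites were present in both animals and both were higher in animal 2. A peak across the TSS, at 0.455, and a peak over the hairpin, at 0.591, were listed in animal 2 only, so within 500 bp of the TSS animal 1 had no peak. The third highest site of the window was the start of Gpc5, a glypican gene, 48367 bp downstream, at 3.08 in animal 1 and 3.94 in animal 2. All 5 sites found in both animals were higher in animal 2, by log2 ratios of 0.16 to 0.52.

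Mir155 had a weakly accessible host promoter and a peak over the hairpin itself. The hairpin lies on the plus strand of chromosome 16 from 84714140 to 84714204, in an exon of Mir155hg, also known as Bic. At the upstream TSS of the host, 10973 bp before the hairpin, the strongest peak had heights of 1.25 in animal 1 and 1.71 in animal 2 (1.48 ± 0.329, SD, n = 2). A second peak on the other side of that TSS, 11040 bp from the hairpin, had 1.10 and 1.47, so the TSS lies between them. The peak over the hairpin had heights of 0.974 and 0.679. It was higher in animal 1, whereas both promoter peaks were higher in animal 2. The second annotated TSS of the host, 1117 bp before the hairpin, had 2 peaks within 1 kb in animal 1 and 0 in animal 2. The stronger is the peak over the hairpin, which begins 978 bp from this TSS in animal 1 and beyond 1 kb in animal 2. The weaker, 248 bp from this TSS at a height of 0.380, was listed in animal 1 only. Of 7 sites in the window, the highest belonged to the promoter of Mrpl39, a mitochondrial ribosomal protein gene 20997 bp downstream, at 8.77 in animal 1 and 9.48 in animal 2.

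Mir223 had the fewest peaks within 50 kb of the 6 and the lowest of the 4 host promoters. Its hairpin lies on the plus strand of chromosome X from 96242817 to 96242926, in an exon of F630028O10Rik, an antisense transcript by annotation. Peaks within 50 kb numbered 2 in animal 1 and 4 in animal 2, and a single site was found in both. That site covers the host's starts, 2891 and 2851 bp before the hairpin, with heights of 0.881 in animal 1 and 0.428 in animal 2 (0.654 ± 0.321, SD, n = 2). Its log2 ratio of -1.04 was the lowest of the 61 sites found in both animals. If 1 step of the height is 1 cut, its height stood for 123 cuts in animal 1, with an exact 95% Poisson interval of 102 to 147. In animal 2 it stood for 63 cuts, with an interval of 48.4 to 80.6. The height is a density and not the number of cuts in the whole site. The intervals cover counting error only. In heights they run from 0.732 to 1.05 and from 0.329 to 0.547, and they do not overlap. They do not cover the spread between animals. Over all matched peaks the log2 ratio had a median of 0.23 and an SD of 0.41. The neutrophil markers S100a8, S100a9, Elane and Mpo were at 0 at their promoters in both animals, and the part of cell composition in the value of Mir223 was not tested.

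Mir146, the gene of miR-146a, was the only one of the 6 with no peak within 5 kb. Its hairpin lies on the minus strand of chromosome 11 from 43374397 to 43374461, with no host on that strand. Peaks within 50 kb numbered 12 in animal 1 and 14 in animal 2. The nearest site lay 10680 bp upstream, across the start of the lincRNA Gm12148 on the opposite strand, with heights of 3.62 in animal 1 and 3.60 in animal 2 (3.61 ± 0.0133, SD, n = 2). The log2 ratio between the animals was -0.0075 at this site, and its stronger stretch holds the NF-kB match shown above. A site 37080 bp upstream, nearest to the TSS of Pttg1, the securin gene, had heights of 3.49 in animal 1 and 4.43 in animal 2. One 25497 bp downstream had 3.70 and 4.01, so it was the higher of these in animal 1 and the lower in animal 2. A cluster of 5 low peaks between 23753 and 28037 bp upstream, with heights of 0.0747 to 0.299, was listed in animal 2 only.

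The host promoters ranged from among the highest peaks to below the median peak. Mir142hg stood at 16.9 ± 0.407, Mir17hg at 3.94 ± 0.635, Mir155hg at 1.48 ± 0.329 and F630028O10Rik at 0.654 ± 0.321 (SD, n = 2 each). No value of one host lay within the range of the next. All 4 hosts were open at the promoter in both animals, as were the hosts of 76.6% of the 1172 microRNA genes with an annotated host, so that count does not set the 4 apart. Over the 898 genes with an open host, the median height was 4.85 in animal 1 and 6.02 in animal 2. Mir142hg was above that median and the other 3 hosts below it in both animals. If 1 step of the height is 1 cut, the exact 95% Poisson intervals were 15.9 to 17.3 in animal 1 and 16.5 to 17.8 in animal 2 for Mir142hg, which overlap. For Mir17hg they were 3.19 to 3.82 in animal 1 and 4.06 to 4.74 in animal 2, and for Mir155hg 1.07 to 1.45 and 1.51 to 1.94. These intervals do not cover the spread between animals, and the log2 ratios of animal 2 over animal 1, 0.33 for Mir17hg and 0.46 for Mir155hg, lay within 1 SD (0.41) of the median of 0.23 over all matched peaks.

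**Figure D2:**
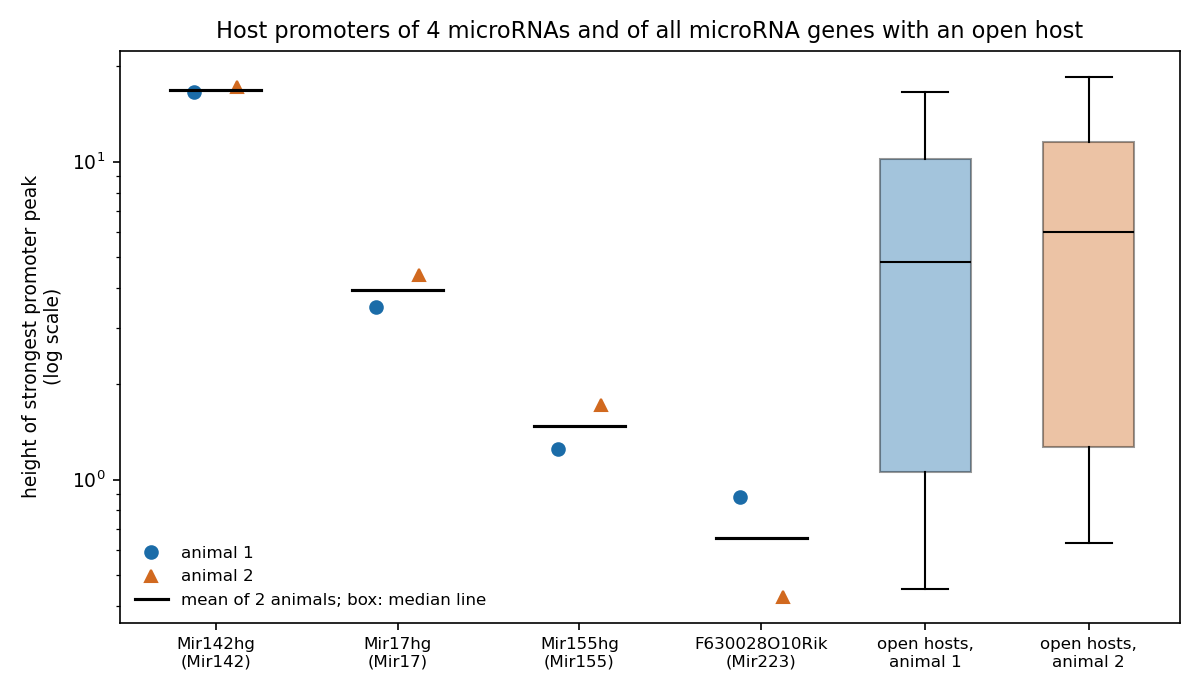
Height of the strongest promoter peak (log axis) of the 4 hosts in animal 1 (circles) and animal 2 (triangles) with the mean as a line, beside boxes of all microRNA genes with an open host (box from the 25th to the 75th percentile, whiskers from the 5th to the 95th). Mir142hg at 16.9 lies near the upper whiskers and F630028O10Rik at 0.654 near the lower ones.

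The hairpins themselves differed in accessibility. A peak overlapped the hairpin of Mir155 in both animals and that of Mir17 in animal 2, so 2 of 6 in either animal, against 6.09% of all microRNA genes. Taking the deposited cut-rate intervals, which list bases with a false discovery rate under 0.05, at least 1 base was listed in both animals in 3 of the 6 hairpins, Mir142, Mir150 and Mir155, against 6.63% of all microRNA genes. The whole hairpin of Mir150 was listed in both animals. The share of the Mir142 hairpin was 100% in animal 1 and 78.1% in animal 2, and that of the Mir155 hairpin 100% and 96.9%. In Mir17, 51.2% of the hairpin was listed in animal 2 and none in animal 1. No base was listed in Mir146 or Mir223. With 6 genes chosen by name, these shares describe the 6 and do not test them.

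Over the 6 loci, 80 peaks were found in each animal. Of the 80, 17 in animal 1 and 15 in animal 2 were in the highest 10% of their library, or 21.3% and 18.8%. Found in the other animal were 77.5% of the peaks of animal 1 and 78.8% of those of animal 2, against 76.5% and 79.0% of all peaks. Promoters held 35 peaks in animal 1 and 36 in animal 2, intergenic DNA 38 in each, introns 4 in each and exons 3 and 2. The locus of Mir150 alone gave 17 of the promoter peaks in animal 1 and 14 in animal 2. Shares of these classes over all peaks are not given here, so the counts only describe these loci. The peaks near the 6 held 211 footprints in animal 1 and 194 in animal 2, or 11.3 and 12.5 per kb of peak, against 11.4 and 12.6 per kb over all peaks. A footprint of the other animal overlapped 58.1% of the distinct footprints in animal 1 and 56.2% in animal 2, against 60.4% and 57.4% over all peaks. At the Mir223 locus none of 2 footprints in animal 1 and none of 5 in animal 2 had such an overlap. At the Mir17 locus 78.6% of 14 and 57.1% of 21 did.

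Joined across the animals, the peaks made 96 sites, of which 61 were found in both, 18 in animal 1 only and 17 in animal 2 only. Sites of 1 animal were low, at 0.208 to 1.17 in animal 1 and 0.0747 to 1.07 in animal 2, whereas the 61 had means of 0.544 to 16.9. The median log2 ratio of animal 2 over animal 1 was 0.12 over the 61 sites, against 0.23 (SD 0.41 across peaks) over the 58277 peaks matched in the whole genome. By locus it was 0.02 for Mir142, 0.14 for Mir150, 0.11 for Mir155, 0.12 for Mir146 and 0.33 for Mir17. The single site of Mir223 was at -1.04.

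**Figure D3:**
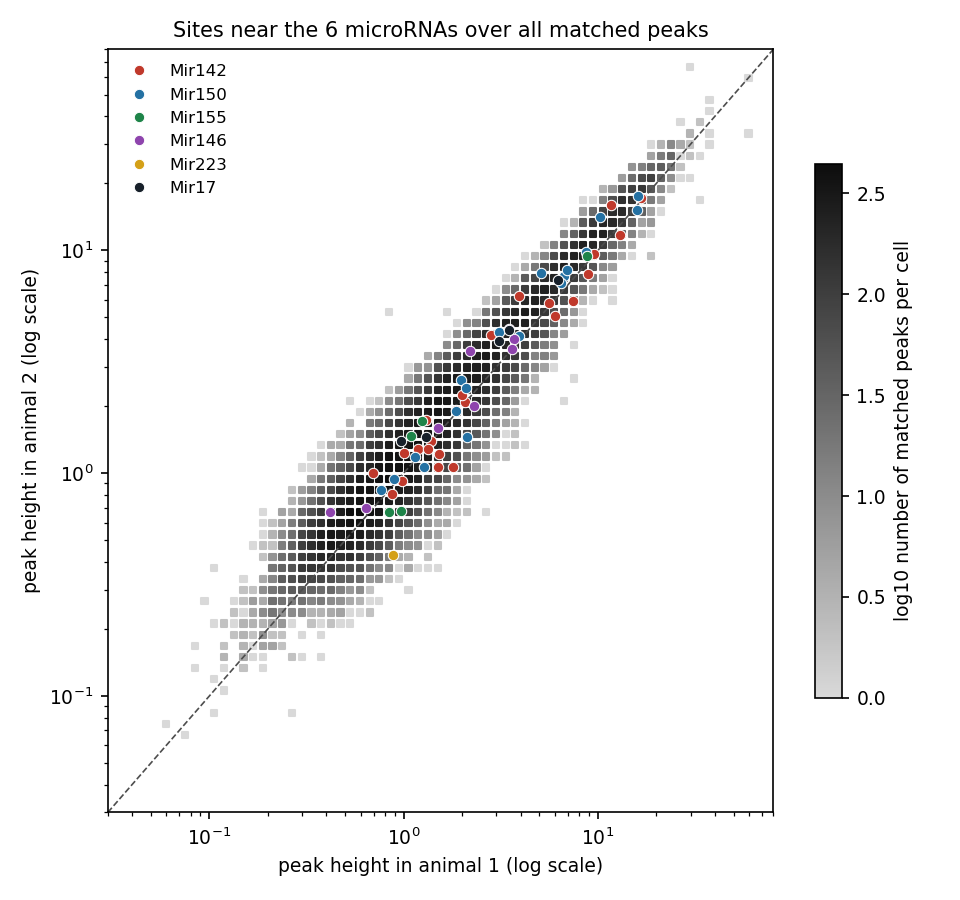
Peak height in animal 2 against animal 1 (both log axes) for the 61 sites near the 6 microRNAs, coloured by locus, over the 58277 peaks matched across the genome as grey cells shaded by their number. The sites lie within the cloud along the dashed line of equal heights, and the single Mir223 site, at 0.881 in animal 1 and 0.428 in animal 2, lies at its lower edge.

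Among all microRNA genes the 6 stood between the 47.2 and the 99.0 percentile by the number of peaks within 50 kb. All 6 had a peak within 50 kb in both animals, as did 69.8% of all microRNA genes, and 5 of 6 had one within 5 kb, against 32.4%. The median count of peaks within 50 kb was 9.5 in animal 1 and 11 in animal 2 for the 6, and 4 in each animal for all. Mir142 (27.5 ± 0.707 peaks, SD, n = 2) and Mir150 (24 ± 2.83) stood at the 99.0 and 97.7 percentile of all microRNA genes, and the lower count of Mir142, 27, was 1 above the higher count of Mir150, 26. Mir146 stood at the 86.5 percentile, Mir17 at 64.7, Mir155 at 62.1 and Mir223 at 47.2. The ranges of Mir17 and Mir155 overlap, at 5 and 8 peaks and at 7 and 5. For the highest peak within 5 kb the order was Mir142 at 16.9 ± 0.407, Mir150 at 16.8 ± 1.01, Mir17 at 6.79 ± 0.793, Mir155 at 0.827 ± 0.209 and Mir223 at 0.654 ± 0.321 (SD, n = 2 each). Mir142 and Mir150 did not differ beyond their spread, nor did Mir155 and Mir223. As many peaks within 5 kb as at Mir142 were listed at 2 other microRNA genes, Mir142b, annotated at the same place, and Gm27878 on chromosome 4.

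**Figure D4:**
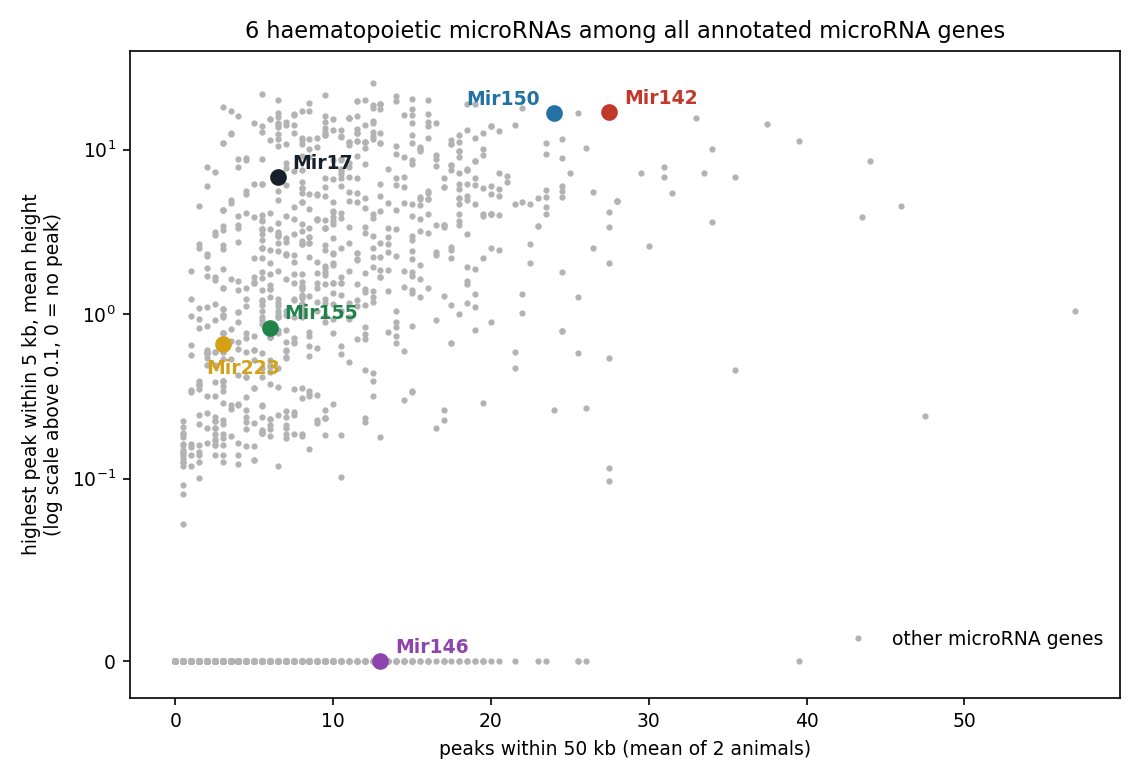
Mean height of the highest peak within 5 kb (log axis above 0.1, with 0 for no peak) against the mean number of peaks within 50 kb, for the 6 microRNAs in colour and all other annotated microRNA genes in grey. Mir142 and Mir150 lie at the upper right with 27.5 and 24 peaks, and Mir146 lies at 0 with 13 peaks.

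The gene most like each member was sought over 100 kb from all of them, by Euclidean distance over log2(1 + peaks within 50 kb) and log2(1 + highest height within 5 kb) in both animals. For Mir142 it was Mir707, in the host Akt1s1, at a distance of 0.433. Gm27740 came nearest to Mir150 at 0.372 and Gm23365 to Mir17 at 0.413. Mir6983, in the host Csf1r, was nearest to Mir155 at 0.211, Mir1983 to Mir146 at 0.0995 and Mir7223 to Mir223 at 0.501. These distances rest on 4 values from 2 animals and describe the pattern only.

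The 6 were set beside other microRNAs known from blood cells and microRNAs known from other tissues. A peak within 5 kb in both animals was listed for 5 of the 6 (median of the mean heights 3.81), 17 of 28 other microRNAs of blood cells (median 0.963), 15 of 32 of other tissues (median 0.0798) and 32.4% of all microRNA genes (median 0). The median of the 6 falls in the gap between Mir155 at 0.827 and Mir17 at 6.79, so no member lies near it. Mir191 led the other blood cell microRNAs at 12.6 ± 2.62 (SD, n = 2). Mir106b, Mir25 and Mir93, paralogs of the Mir17 cluster in an intron of the replication gene Mcm7, shared 1 peak of 11.1 ± 2.29. Likewise Mir23a, Mir27a and Mir24-2 shared 1 peak of 4.07 ± 1.36 (SD, n = 2), and each gene is counted on its own. While Mir146 had no peak within 5 kb, Mir146b, whose 5p strand has the same seed, stood at 10.3 ± 0.468 (SD, n = 2). Mir146b lies in the host Mfsd13a, and its highest peak within 5 kb is not assigned to either gene. The 11 without a peak were Mir181a-1, Mir181b-1, Mir181a-2, Mir181b-2, Mir221, Mir222, Mir144, Mir451a, Mir29a, Mir29b-1 and Mir196b.

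In the list of other tissues Mir200c and Mir141 shared a peak of 3.45 ± 0.0910 (SD, n = 2), followed by Mir203 at 2.08 ± 0.222 and Mir124a-3 at 1.28 ± 0.538. The microRNAs of muscle and heart (Mir1a-1, Mir133a-2, Mir206, Mir133b, Mir208a, Mir208b) had none, nor had Mir9-1, Mir9-2, Mir9-3, Mir216a, Mir217, Mir200a, Mir200b, Mir429, Mir184 and Mir182. On the same measure Mir200c, Mir141, Mir203 and Mir124a-3 stood above Mir155 (0.827) and Mir223 (0.654). The other genes of that list had means of at most 0.731 (Mir302a and Mir302b). Members of a cluster share peaks: Mir290a, Mir291a, Mir294 and Mir295 rest on 1 peak of 0.578 ± 0.00768.

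**Figure D5:**
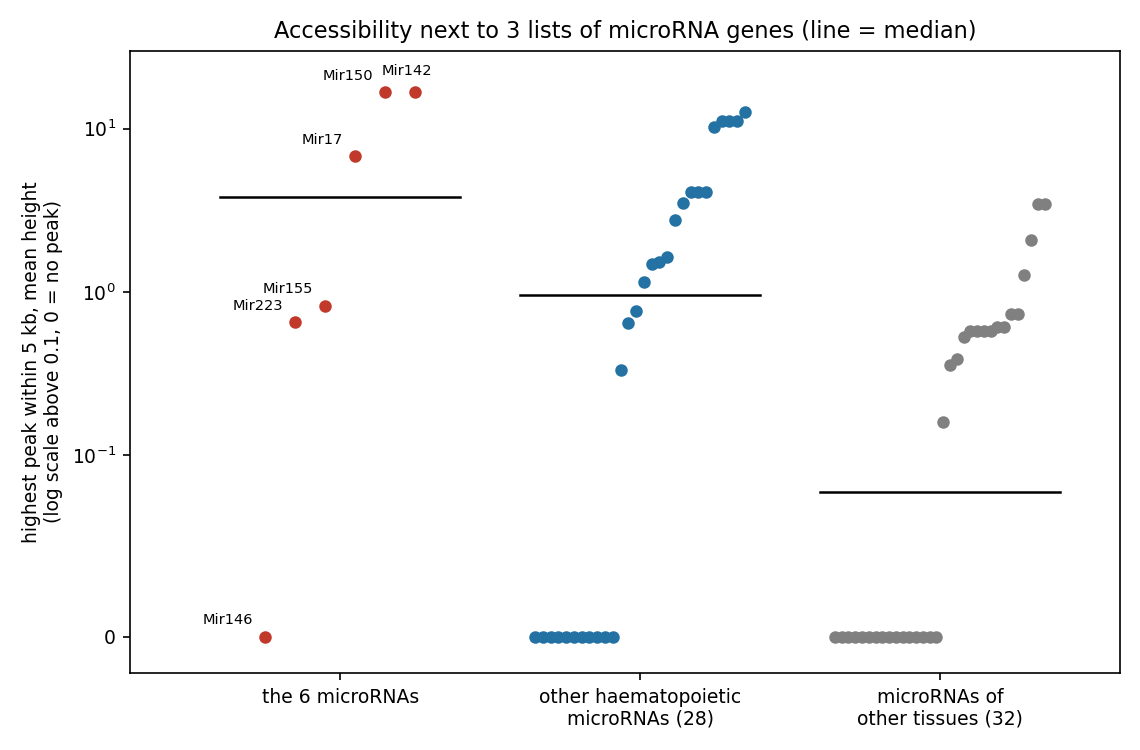
Mean height of the highest peak within 5 kb (log axis above 0.1, with 0 for no peak) for the 6 microRNAs, 28 other haematopoietic microRNAs and 32 microRNAs of other tissues, 1 point per gene with the list median as a line. The medians are 3.81, 0.963 and 0.0798, and each list holds genes at 0.

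The genes that make and use microRNAs were broadly open. Of 21 found in the annotation, 19 were open at the promoter in both animals, against 59.8% of protein-coding genes. The highest were Tnrc6c, a partner of Argonaute, at 18.4 ± 1.85, Tarbp2, a partner of Dicer, at 18.4 ± 0.917 and the helicase Ddx5 at 16.5 ± 1.96 (SD, n = 2 each). Drosha, which cuts the hairpin out, had heights of 11.2 in animal 1 and 16.1 in animal 2, and Dicer1, which makes the mature strand, had 12.3 and 12.0. Lin28a and Lin28b, which block let-7 in embryonic cells, had a peak in animal 2 only, at 0.591 and 0.550.

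Of 13 genes known as targets of the 6 microRNAs, 12 were open at the promoter in both animals, against 59.8% of protein-coding genes. The 13 were picked by name, so this count describes them and does not test them. Bcl2l11, the gene of the cell death protein Bim and a target of the Mir17 cluster, stood highest at 15.5 ± 2.71, and Bach1, a target of miR-155, stood at 10.8 ± 2.06 (SD, n = 2 each). Myb, a target of miR-150, had 2.56 and 2.65. Traf6 and Irak1, targets of miR-146a in the Toll-like receptor pathway, stood at 6.84 ± 1.43 and 4.28 ± 0.0992 (SD, n = 2 each). Nlrp3, an inflammasome gene and target of miR-223, was closed at its promoter in both animals. Accessibility of a promoter does not measure the RNA that a microRNA acts on.

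Consensus letters of transcription factors of blood cells were searched on both strands in 200 bp around the midpoint of each peak near the 6, and their shares are given beside those in all peaks. PU.1 letters (GAGGAAGT) were in 6.25% of the 80 peaks in animal 1 and 7.5% in animal 2, against 5.61% and 4.65% of all peaks. ETS letters (CCGGAAGT), which share GGAAGT with those of PU.1, were in 1.25% in each animal, against 1.88% and 1.97%. Those for RUNX, TGTGGT, were in 15% and 17.5%, against 17.5% and 16.3% of all peaks. The C/EBP consensus, TTGCNNAA, was found in 6.25% and 8.75%, against 7.55% and 6.65%. MYB letters, written CNGTTG, were the most common of all, in 23.8% and 27.5%, against 26.8% and 26.3% of all peaks.

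Among the factors of immune signalling, the shorter NF-kB form was in 3.75% of the 80 peaks in animal 1 and 6.25% in animal 2, against 4.79% and 4.80% of all peaks, and the longer one, which has 1 more free base in the middle and can overlap it, in 5% and 2.5%, against 4.58% and 4.43%. AP-1, searched as TGANTCA, was in 5% and 2.5%, against 5.84% and 5.22%, and STAT, searched as TTCNNNGAA, in 7.5% and 6.25%, against 5.25% and 4.57%. The E-box was in 7.5% and 8.75%, against 5.22% and 5.51%, E2F (TTCCCGC) in 1.25% in each animal, against 2.42% and 2.80%, and the CTCF core in 7.5% and 6.25%, against 4.06% and 4.37%. The highest ratio to all peaks in both animals was that of IRF, in 6 peaks in animal 1 and 4 in animal 2, or 7.5% and 5%, against 2.87% and 2.32%. GATA letters, AGATAA, were in 11.3% and 8.75%, against 5.82% and 4.99%. A footprint touched 2 of 6 IRF matches in animal 1 and 2 of 4 in animal 2. With 80 peaks from 6 windows these shares rest on few matches.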

How the data were processed

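DNase-seq libraries of 2 spleens were used, 1 per animal. Per the deposited file listings, peaks, footprints and cut-rate intervals come from each library alone, on mm10. The aligner and the callers: not given in the sources used here. Each library has 2 narrowPeak lists deposited by the authors, and the longer one was used (79246 and 77231 peaks). Its height is a signal as deposited, with no unit in words. Tested on the values, heights below 1.5 were whole multiples of 1 step per library (0.00716 in animal 1, 0.00679 in animal 2), within 0.00074 of a step. If 1 step is 1 cut, the libraries held 139.6 M and 147.3 M cuts. The deposited cut-rate intervals carry a q-value and are listed only under 0.05. The deposited footprints hold a constant 0.01 as p-value, so they cannot be ranked.

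Hairpins, hosts and TSSs are from GENCODE M21, and sequences from GRCm38.p6, whose chromosome ends no peak passes. Overlaps were computed in Python 3.11.15 with numpy 2.4.6, scipy 1.17.1 and pysam 0.24.0, and checked on simulated intervals. Peaks of the animals were matched by 1 shared bp, and a peak's class is that of its midpoint. Named were the 6 members, their hosts, clusters and 3 highest sites, the 3 highest and the closed genes of each comparison list, and the gene most alike. Some items that this rule names are not reported here. Members, lists and motifs were chosen with earlier results of these data known. With 1 group no test was made. Alternatives were the shorter list, the higher 50% of peaks, other windows and overlaps, and each animal alone.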

Additional observations from a re-analysis of the deposited data

How the results depend on the processing

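As means of the animals, the 80 peaks, the 202.5 footprints and the 87.5 peaks with a motif, summed over motifs, stayed within 1.5 times of their values under every alternative tried (the lowest mean of peaks was 55.5, with 53 in animal 2, both for the higher 50% of peaks and for a window of 25 kb), as did the 4 host promoters, which became 3 with the higher 50% of peaks (without Mir223) and with a promoter of 500 bp (without Mir17). Peaks found in the other animal, 78.1% on average, were 82.7% in the shorter list, 93.9% in the higher 50% of peaks and 73.8% when 50% of a peak had to be covered. The 5 microRNAs with a peak within 5 kb became 4 in the shorter list, without Mir155. They became 3 with the higher 50% of peaks, without Mir155 and Mir223. Within 1 kb they were 3, without Mir223 and Mir17, where all microRNA genes stood at 12.4%. Among named Mir genes only, 39.4% had a peak within 5 kb in both animals, against 32.4% of all microRNA genes. The 15 open microRNAs of other tissues became 8 in the shorter list and 4 in the higher 50%. With 1 animal left out, the peaks were 80 in either case, the footprints 194 to 211, the share found in the other animal 77.5% to 78.8%, the host promoters 4, the members within 5 kb 5 and all microRNA genes 35.5% to 35.6%. Of 42 recounts for single loci, 32 were within 1.5 times. No paired analysis was possible because there is 1 group. At this depth, sites found in 1 animal reached at most 1.17 in height.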
